A study of Mus musculus with 31 samples.

Results

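CD4+ T cells of mice before lymphoma, labelled with the Vav1-Myo1f fusion on both sides of a slash, were compared with CD4+ T cells of a Cre control without the fusion. The comparison used 3 fusion/fusion libraries (TA023, TA024 and TA025, called fusion/fusion 1, 2 and 3) and 2 control libraries (TA018 and TA019, called control 1 and 2), 5 of the 31 libraries of the series, chosen by their genotype labels. Fusion/fusion cells carry the label Vav1Myo1ffl/wt;CD4CreERT2 (Vav1Myo1f), given before the slash and again after it, with the status pre-lymphoma. Control cells carry the label CD4-Cre-ERT2(WT), with the status normal. The strain is written C57B/6 throughout. A group of 3 control/fusion libraries, with the label CD4-Cre-ERT2(WT) before the slash and the fusion label after it, shared the fit and is given beside the main comparison. What the slash stands for, the age of the mice, a tamoxifen schedule and whether each library is a separate animal are not given in the labels, so the p-values rest on the spread among libraries, which may be technical. CD4+ cells of tumor mice came from other libraries with their own controls: 4 tumor libraries (CD4-CreVav1Myo1f fl/wt) with 3 controls (CD4-Cre(WT)), and 2 tumor libraries (CD4-CreERT2Vav1Myo1f fl/wt) with 2 controls (CD4-CreERT2 (WT)).

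VAV1 exchanges guanine nucleotides on Rac and so switches it on below the T cell receptor, and its activity is held back by its own autoinhibitory regions. MYO1F is a class I myosin that links membranes to actin. Fusions that replace the end of VAV1 occur in peripheral T cell lymphoma, a group of lymphomas of mature T cells. In the mouse model a floxed allele is switched on by CreERT2, a Cre that needs tamoxifen, expressed from Cd4 sequences. Naive CD4+ T cells rest and recirculate through lymphoid organs, and after antigen contact they divide and become T helper cells that differ in their cytokines, such as T helper 2 cells, which are driven by GATA3 and make IL-4 and IL-13.

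Polyadenylated RNA was amplified as full-length cDNA and counted per gene. The fusion/fusion libraries held 27371000, 14401000 and 12632000 gene counts and the control libraries 24513000 and 26008000. Levels are given as CPM, counts per 1000000 after scaling by TMM, and changes as log2 fold changes of fusion/fusion over control cells with their standard error. Genes were called at an adjusted p below 0.05 (edgeR's quasi-likelihood F test, Benjamini-Hochberg over all 16257 genes tested), and "rose", "fell", "higher" and "lower" are used of genes so called. The first principal component held 51.8% of the variance and placed the fusion/fusion libraries at -39.01, -54.07 and -41.49, the control/fusion libraries at 4.23, 11.66 and 6.02 and the controls at 52.3 and 60.37. Reads aligned to a single place that matched no gene were 7.28% to 8.46% in fusion/fusion, 8.74% to 9.82% in control/fusion and 10.9% to 12.8% in control libraries, so this sign of RNA makeup moved with the groups, and its part in the results was not tested. Counts of the Y-linked Ddx3y (1421 to 3887 in fusion/fusion and 3954 and 4360 in control libraries) and at most 17 counts of Xist in each show that all 5 libraries came from male mice, while 1 control/fusion library, with 11824 Xist counts, did not.

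The fusion/fusion cells differed from control cells in 45.7% of the genes tested. Of 16257 genes, 3862 rose (23.8%) and 3573 fell (22.0%), while the median change over all genes was -0.01. All counts of list members below are to be read against these shares. Changes over 2-fold were more often upward, with 1688 genes higher (10.4%) and 705 lower (4.34%). Without control 2, the counts were 2616 higher and 2491 lower, and without control 1 they were 3010 and 2721. In control/fusion cells 1885 genes were higher (11.6%) and 1414 lower (8.70%) against the same 2 controls, and over 2-fold 4.04% and 0.904%. Tested directly, 1559 genes were higher (9.59%) and 1512 lower (9.30%) in fusion/fusion than in control/fusion cells, and over 2-fold 2.96% and 0.990%. In 33.1% of genes all 3 fusion/fusion libraries lay above both controls, and in 32.8% below.

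**Figure D1:**
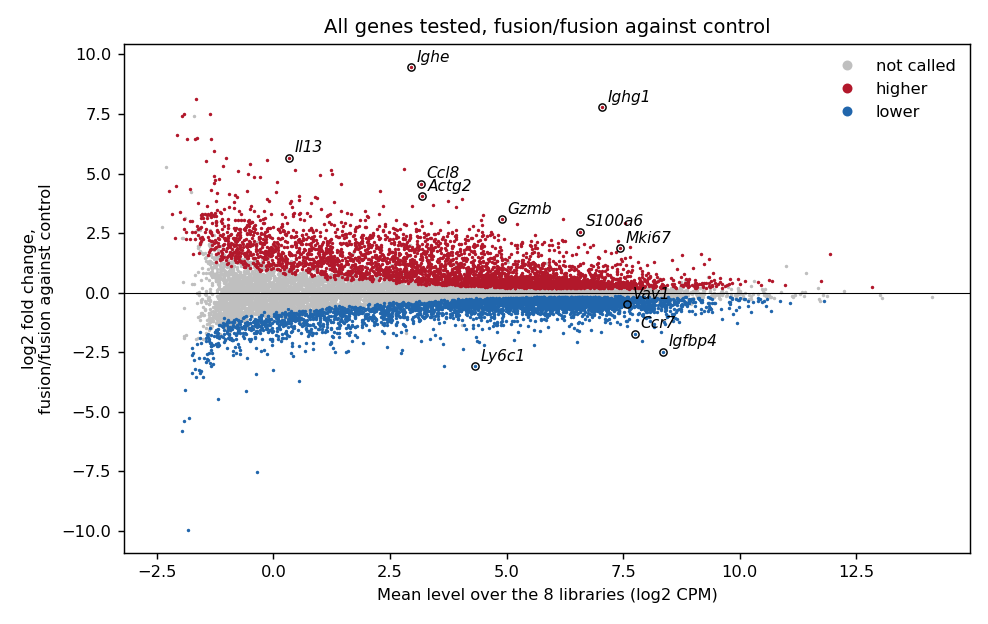
Each point is a gene tested in fusion/fusion against control cells, with its mean level over the 8 libraries of the fit on the horizontal axis (log2 CPM) and its log2 fold change on the vertical axis. Red and blue points passed as higher (3862) and lower (3573), gray points did not pass, and ringed points are named genes. The immunoglobulin genes Ighe (9.47) and Ighg1 (7.79) lie at the top.

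Both partners of the fusion changed, in opposite directions. Vav1 (ENSMUSG00000034116, chromosome 17, 57279100 to 57328031, plus strand, in GRCm38) had 162, 161 and 168 CPM in fusion/fusion cells, against 237 and 225 CPM in control cells. It fell by 0.49 on the log2 scale (standard error 0.06; adjusted p = 0.00021), and no fusion/fusion library reached a control. Myo1f (ENSMUSG00000024300, chromosome 17, 33555707 to 33607764, plus strand) had 143, 180 and 171 CPM in fusion/fusion cells and 150, 156 and 172 CPM in control/fusion cells, against 83 and 70.7 CPM in control cells, and rose by 1.1 ± 0.11 (adjusted p = 5.1e-05). For Myo1f the direct difference between both pre-lymphoma groups was 0.04 ± 0.10 and did not pass (adjusted p = 0.799), whereas Vav1 was lower in fusion/fusion than in control/fusion cells (difference -0.26 ± 0.06, adjusted p = 0.0133). Counts per gene do not tell a fused from a normal transcript. Cd4, the gene of the coreceptor that defines the cells, stood at 1020, 970 and 989 CPM in fusion/fusion cells, against 1070 and 990 CPM in control cells, and its change of -0.06 ± 0.07 did not pass. In bulk RNA, fewer cells of a type and less RNA per cell cannot be told apart, here and in all results that follow.

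Among 20 genes of the Rac and actin pathway around VAV1, 5 rose and 5 fell, or 50% called, against 45.7% of all genes tested. Their median change was -0.04, against -0.01 over all genes. Tiam1, another exchange factor for Rac, stood at 192, 173 and 184 CPM in fusion/fusion cells, against 81.8 and 47.4 CPM in control cells, and rose by 1.5 ± 0.18 (adjusted p = 0.00012). The GTPases Rac1, Rac2 and Cdc42 rose by 0.33, 0.33 and 0.35. Arhgap45, a GTPase-activating protein of blood cells, fell by 0.79 on the log2 scale, to 1270, 1310 and 1420 CPM in fusion/fusion against 2240 and 2360 CPM in control cells, and the exchange factor Dock8 fell by 0.38. The homologues Vav2 (0.34 ± 0.14, adjusted p = 0.0642) and Vav3 (-0.10 ± 0.11, adjusted p = 0.498) did not pass. Of 12 myosin genes of blood cells 7 rose and 2 fell, and 1 fell when control 1 or control 2 was left out. Besides Myo1f, the class I myosins Myo1e (64.9, 59.3 and 59.2 CPM in fusion/fusion cells, against 31.1 and 22.2 CPM in control cells; 1.2 ± 0.13) and Myo1d (4.65, 4.11 and 3.85 CPM in fusion/fusion cells, against 1.66 and 1.65 CPM in control cells; 1.35 ± 0.23) rose.

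Transcripts of the T cell receptor signalling chain changed in both directions. Of 14 genes for receptor chains and T cell identity, 4 rose and 2 fell, or 42.9% called, against 45.7% of all genes tested. Cd3e (0.03 ± 0.07) and the constant chain Trac (0.24 ± 0.10) did not pass, although Trac did without fusion/fusion 1 (0.34, adjusted p = 0.00636). Cd247, which encodes the CD3 zeta chain that carries most of the receptor's signalling motifs, stood at 195, 187 and 212 CPM in fusion/fusion cells, against 398 and 414 CPM in control cells. It fell by 1.04 on the log2 scale (adjusted p = 8.1e-06), and it was lower than in control/fusion cells too (difference -0.45 ± 0.07, adjusted p = 0.00261). Cd5, an inhibitory coreceptor whose level follows receptor signal strength in thymocytes, rose by 0.84 ± 0.09, with 818, 908 and 867 CPM in fusion/fusion cells, against 518 and 447 CPM in control cells. Of 17 proximal signalling genes 3 rose and 7 fell, or 58.8% called (median -0.15). The Tec kinase Txk fell to 54.9, 53.3 and 57.3 CPM in fusion/fusion, against 119 and 130 CPM in control cells, as did the adaptor Grap2 (-1.09 ± 0.08) and the phospholipase Plcg1 (-0.29 ± 0.06). The kinase Zap70 (0.34 ± 0.07) and the adaptor Lcp2, also called SLP-76 (0.50 ± 0.06), rose, and Lck (-0.06 ± 0.07) did not pass.

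Factors that are switched on after receptor signalling rose more often than they fell. Of 18 NR4A, EGR, AP-1 and NFAT factors 11 rose and 1 fell, but 7 rose without control 2. Nr4a2, an orphan nuclear receptor induced by antigen signals, stood at 7.43, 5.92 and 6.36 CPM in fusion/fusion cells, against 2.61 and 2.04 CPM in control cells, and rose by 1.5 ± 0.20 (adjusted p = 0.00024). Nr4a1 rose by 0.72 ± 0.12, with 123, 124 and 138 CPM in fusion/fusion cells, against 89.7 and 65.8 CPM in control cells, and Nr4a3 by 0.93 ± 0.16. The AP-1 factor Batf stood at 80.7, 89.5 and 84.3 CPM in fusion/fusion cells, against 45.3 and 41.8 CPM in control cells, and rose by 0.96 ± 0.09, and it was higher than in control/fusion cells as well (0.68 ± 0.08, adjusted p = 0.00075). Of the 18 factors 3 were higher and none lower than in control/fusion cells (median -0.01). The direct differences of Nr4a2 (0.49 ± 0.17, adjusted p = 0.0714) and Nr4a3 (-0.16 ± 0.13, adjusted p = 0.439) did not pass. Phosphatases and Sprouty proteins that damp ERK followed: of 12 genes 7 rose and 2 fell, among them Dusp4 at 34.2, 30.6 and 37 CPM in fusion/fusion cells, against 9.51 and 4.35 CPM in control cells (2.30 ± 0.25, adjusted p = 7e-05) and Dusp6 at 80.4, 83.1 and 79.3 CPM in fusion/fusion cells, against 39.4 and 38 CPM in control cells (1.06 ± 0.09). In both genes the lowest fusion/fusion library was above the higher control, as in 33.1% of all genes. Of 16 genes that act as brakes below the receptor 6 rose and 5 fell, or 68.8% called, against 45.7% of all genes tested. The ubiquitin ligase Rnf128 (GRAIL), linked to anergy, rose by 1.58 ± 0.28, and the diacylglycerol kinase Dgka fell by 0.88 on the log2 scale. Of 13 NF-kB genes 3 rose and 1 fell, and without control 2 none passed.

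**Figure D2:**
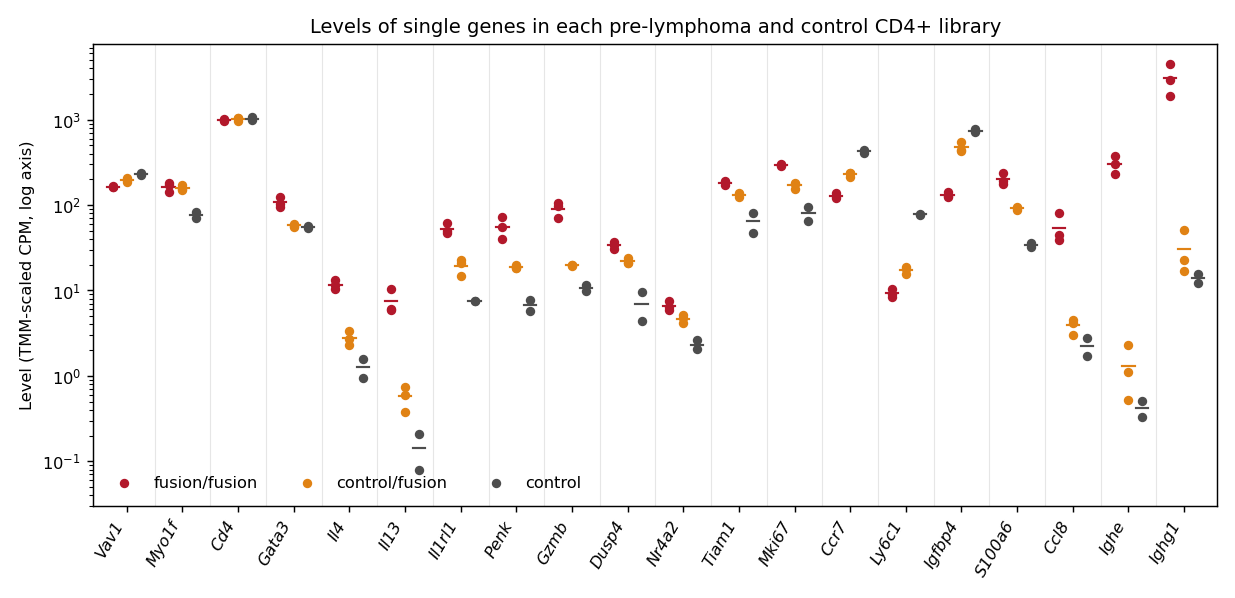
Levels of named genes (TMM-scaled CPM, log axis) in each of 3 fusion/fusion, 3 control/fusion and 2 control libraries; each point is a library and each bar the mean of its group. Cd4 lies between 970 and 1020 CPM in fusion/fusion and between 990 and 1070 CPM in control libraries, while Il4, Il13, Il1rl1, Gzmb, Ighe and Ighg1 lie highest and Ccr7, Ly6c1 and Igfbp4 lowest in fusion/fusion cells.

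Genes of naive and resting T cells fell as a group. Of 16 such genes, 16 were tested and 16 fell, with a median change of -0.93, and 14 of them were lower in fusion/fusion than in control/fusion cells when tested directly. Igfbp4 (ENSMUSG00000017493, chromosome 11, 99041244 to 99054392, plus strand), a secreted binding protein of insulin-like growth factors that marks naive CD4+ T cells, stood at 128, 126 and 142 CPM in fusion/fusion cells and 442, 543 and 434 CPM in control/fusion cells, against 711 and 773 CPM in control cells. It fell by 2.49 on the log2 scale (standard error 0.10; adjusted p = 6.3e-07), with every control/fusion library in between. Ccr7, the receptor that guides naive cells into lymph nodes, stood at 120, 128 and 138 CPM in fusion/fusion cells, against 409 and 446 CPM in control cells, and fell by 1.73 (adjusted p = 6.5e-07). The transcription factors of the resting state fell as well. Lef1 stood at 223, 216 and 234 CPM in fusion/fusion cells, against 566 and 568 CPM in control cells, Bach2 at 63.9, 45.5 and 60.4 CPM in fusion/fusion cells, against 176 and 171 CPM in control cells, and Tcf7 at 960, 858 and 1010 CPM in fusion/fusion cells, against 1710 and 1610 CPM in control cells. In each of the 3 factors all fusion/fusion libraries lay below all controls, as in 32.8% of all genes.

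Factors that hold T cells quiescent fell in 9 of 14 genes tested and rose in none. Tsc22d3 (GILZ), a glucocorticoid-induced regulator, stood at 177, 178 and 204 CPM in fusion/fusion cells, against 517 and 656 CPM in control cells (adjusted p = 7.2e-06). Foxp1 fell by 0.89 and Klf2, which sets the homing program of resting cells, by 0.55 on the log2 scale. Among genes named for the size of their fall, the first 2 were Ly6c1 (ENSMUSG00000079018, chromosome 15, 75044018 to 75048830, minus strand), a Ly6 surface protein, and Slc16a5, a monocarboxylate transporter family member. Ly6c1 stood at 8.4, 8.98 and 10.3 CPM in fusion/fusion cells, against 77 and 78.3 CPM in control cells, and fell by 3.09 (adjusted p = 2.1e-07), while its close relative Ly6c2 rose by 1.95 ± 0.24, with 61.9, 115 and 69.7 CPM in fusion/fusion cells, against 22.1 and 20.3 CPM in control cells. Reads that align to both genes could be left out of the counts or placed in the wrong gene, so the values of this pair are uncertain. Slc16a5 stood at 5.22, 6.89 and 5.34 CPM in fusion/fusion cells, against 45.2 and 51.5 CPM in control cells, and Amigo2, an adhesion molecule, at 7.61, 7.94 and 7.46 CPM in fusion/fusion cells, against 39.7 and 40.2 CPM in control cells. Vipr1, a receptor for vasoactive intestinal peptide found on resting T cells, stood at 45.8, 55.2 and 48.1 CPM in fusion/fusion cells, against 216 and 201 CPM in control cells, and fell by 2.07.

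Activation markers, costimulatory receptors and inhibitory receptors were higher in fusion/fusion cells. Of 14 activation markers 9 rose and 1 fell, and of 15 genes of the TNF receptor family 9 rose and 2 fell. Of 11 inhibitory receptors 10 rose and 1 fell, and the medians were, in this order, 0.66, 0.72 and 0.86. In control/fusion cells 9, 7 and 10 genes of these lists rose, with medians of 0.47, 0.33 and 0.76. Tested directly, 4, 7 and 5 were higher and 0, 1 and 1 lower in fusion/fusion than in control/fusion cells. Il2ra, the high-affinity chain of the IL-2 receptor, stood at 264, 272 and 281 CPM in fusion/fusion cells, against 114 and 84.1 CPM in control cells (1.46 ± 0.11, adjusted p = 1.1e-05). The adhesion receptor Cd44, high on antigen-experienced cells, rose by 0.82 ± 0.11, whereas the early marker Cd69 fell by 0.48, with 100, 98.5 and 107 CPM in fusion/fusion cells, against 129 and 156 CPM in control cells. Icos stood at 316, 310 and 292 CPM in fusion/fusion cells, against 126 and 91.3 CPM in control cells, and Tnfrsf4 (OX40) at 161, 203 and 214 CPM in fusion/fusion cells, against 51.8 and 41.1 CPM in control cells. Tnfrsf9 (4-1BB) stood at 118, 126 and 141 CPM in fusion/fusion cells, against 33.3 and 22.3 CPM in control cells, and rose by 2.21 ± 0.15 (adjusted p = 5.4e-06). Tnfrsf8 (CD30), a receptor found on some T cell lymphomas, rose by 1.77 ± 0.26 and was higher than in control/fusion cells by 1.12 ± 0.22 (adjusted p = 0.00822).

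The inhibitory receptors that rose included Tigit at 111, 112 and 120 CPM in fusion/fusion cells, against 34.2 and 18.1 CPM in control cells, Pdcd1 (PD-1) at 125, 121 and 118 CPM in fusion/fusion cells, against 43.9 and 17.6 CPM in control cells, and Ctla4 at 192, 187 and 196 CPM in fusion/fusion cells, against 72.4 and 67.1 CPM in control cells. Pdcd1 rose by 1.98 ± 0.28, and although its controls lay far apart, the lowest fusion/fusion library was above both. Of 11 transcription factors linked to exhausted T cells 10 rose and none fell, among them Tox2 (74, 59.8 and 60.8 CPM in fusion/fusion cells, against 23.9 and 12 CPM in control cells; 1.86 ± 0.24) and Maf (1.17 ± 0.11). Transcripts of activating and of inhibitory receptors were thus higher in the same libraries. Markers of regulatory T cells, which overlap with these lists, rose in 13 of 13, with a median of 1.18. In control/fusion cells 11 of these 13 rose (median 0.82), as did 8 of the 11 exhaustion-linked factors (median 0.71). Tested directly, 7 and 4 of them were higher in fusion/fusion than in control/fusion cells, and none lower. Foxp3, the factor that defines regulatory T cells, stood at 242, 241 and 278 CPM in fusion/fusion cells, against 120 and 105 CPM in control cells, and rose by 1.17 ± 0.09 (adjusted p = 9.1e-06). Lrrc32 (GARP), which holds latent TGF-beta on regulatory T cells, rose by 1.70 ± 0.11.

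T helper 2 genes had the highest median change of the helper cell lists, a ranking that was not tested. Of 14 cytokine and receptor genes 12 were tested, 10 rose and none fell, with a median of 2.26, and 9 were higher than in control/fusion cells. Il4 (ENSMUSG00000000869, chromosome 11, 53602982 to 53618669, minus strand) had 11.5, 13.1 and 10.5 CPM in fusion/fusion cells and 2.32, 3.38 and 2.73 CPM in control/fusion cells, against 1.58 and 0.941 CPM in control cells, and rose by 3.22 ± 0.25 (adjusted p = 1.2e-05). The direct difference between both pre-lymphoma groups was 2.06 ± 0.21 (adjusted p = 0.00032). Il13 (ENSMUSG00000020383) was picked after its values were seen: it had 169, 151 and 75 counts in fusion/fusion libraries, against 5 and 2 counts in controls, which is 6.04, 10.5 and 5.89 CPM in fusion/fusion cells, against 0.208 and 0.0784 CPM in control cells. The fitted change of 5.66 ± 0.48 rests on few control counts and depends on the prior count of the fit. Il10 stood at 8.4, 8.43 and 8.8 CPM in fusion/fusion cells, against 1.62 and 1.69 CPM in control cells, and the IL-33 receptor Il1rl1 (ST2) at 47.2, 61.1 and 50.4 CPM in fusion/fusion cells, against 7.51 and 7.45 CPM in control cells, a change of 2.82 ± 0.19 (adjusted p = 4.5e-06). Every fusion/fusion library exceeded both controls in these 4 genes, which were picked for their change, and in 33.1% of all genes. Il5 was too low to be tested, and the IL-4 receptor chain Il4ra did not pass (-0.15 ± 0.10).

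Gata3, which encodes the factor that directs T helper 2 cells, was higher in fusion/fusion cells but not detectably so in control/fusion cells. It stood at 94, 124 and 104 CPM in fusion/fusion cells and 57.5, 60.3 and 56.1 CPM in control/fusion cells, against 56.2 and 53.9 CPM in control cells. The change against control was 0.96 ± 0.11 (adjusted p = 7.3e-05) in fusion/fusion and 0.07 ± 0.10 (adjusted p = 0.654) in control/fusion cells, and both pre-lymphoma groups differed by 0.89 ± 0.09 (adjusted p = 0.0004). Of 12 T helper 2 transcription factors 8 rose and 2 fell, or 1 fell without control 1. Nfil3, another factor of this list, stood at 19.6, 21.5 and 22.1 CPM in fusion/fusion cells and 7.5, 6.83 and 7.21 CPM in control/fusion cells, against 7.84 and 4.43 CPM in control cells, with a direct difference between both pre-lymphoma groups of 1.55 ± 0.18 (adjusted p = 0.00064). Stat6, the mediator of IL-4 receptor signals, fell by 0.43.

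The promoters of T helper 2 genes were searched for GGAAA, the core of NFAT sites, and for the AP-1 site TGACTCA, on both strands, since NFAT and AP-1 are the factors known to bind cytokine promoters after receptor signals. Sequences are those of RefSeq for GRCm38.p6, from 250 bases before to 50 bases after the start, and 12 of 14 genes of the list matched, with 14 promoters. GGAAA was found in 11 of the 14 (78.6%), against 61.3% of all 32851 promoters, and TGACTCA in 2 (14.3%), against 5.2%. The letters of both motifs do not allow an overlap between them. The promoter of Il13 (chr11:53634653-53634952, minus strand) is shown as the cytokine gene with the strongest change of the list, with GGAAA or its reverse complement TTTCC in capitals, 4 in all:
Il13: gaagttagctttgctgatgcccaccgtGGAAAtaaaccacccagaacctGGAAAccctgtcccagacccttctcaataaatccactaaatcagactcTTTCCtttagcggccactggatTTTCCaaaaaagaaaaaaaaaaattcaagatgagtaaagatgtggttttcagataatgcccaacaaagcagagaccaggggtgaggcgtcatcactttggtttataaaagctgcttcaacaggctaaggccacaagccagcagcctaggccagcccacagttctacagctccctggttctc

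Genes of other helper programs were also among those that rose. Of 14 T helper 1 genes 9 rose and 1 fell: the T helper 1 factor Tbx21 rose by 0.84 ± 0.14, Ifng stood at 4.18, 4.25 and 3.69 CPM in fusion/fusion cells, against 1.54 and 1.69 CPM in control cells, and the receptor chains Il12rb1 and Il18rap rose by 1.40 and 1.34. The gene that fell was Stat4, a call that was lost whichever of the 5 libraries was left out, and without control 2 only 6 rose. Of 9 T helper 17 genes tested 6 rose, but here the median change was the same in both pre-lymphoma groups (1.03 in fusion/fusion and 1.03 in control/fusion cells). Of 14 follicular helper genes 12 rose and none fell, or 9 rose without control 2. Their median was 0.96, against 0.22 in control/fusion cells, and 11 were higher in the direct comparison. Bcl6, the factor of follicular helper cells, rose by 0.54 ± 0.11, or 0.35 without control 2, and Cxcr5, the receptor that leads these cells into follicles, by 0.85 ± 0.19, which was lost without control 2 (adjusted p = 0.0503).

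Cytotoxic genes split. Of 13 genes tested 8 rose and 1 fell, with 5 higher without control 2. Granzyme B (Gzmb; ENSMUSG00000015437, chromosome 14, 56258838 to 56262260, minus strand) had 70.1, 106 and 96.6 CPM in fusion/fusion cells and 19.9, 20.1 and 19.3 CPM in control/fusion cells, against 11.5 and 9.76 CPM in control cells. It rose by 3.09 ± 0.17 against control (adjusted p = 1.6e-06) and by 2.19 ± 0.14 against control/fusion cells (adjusted p = 4.8e-05). Perforin (Prf1), which opens the path for granzymes, went the other way, with 11.6, 13.9 and 11.1 CPM in fusion/fusion cells, against 50.1 and 49.6 CPM in control cells, a fall of 2.03 on the log2 scale (adjusted p = 1.4e-06). Klrg1, a receptor of terminally differentiated cells, stood at 29.5, 38.1 and 41.6 CPM in fusion/fusion cells, against 6.89 and 6.82 CPM in control cells. Of 8 natural killer (NK) cell markers tested 4 rose, Ncr1 (5.75, 4.81 and 5.58 CPM in fusion/fusion cells, against 1.41 and 1.29 CPM in control cells), Tyrobp (119, 142 and 121 CPM in fusion/fusion cells, against 71.4 and 82.9 CPM in control cells), Eomes and Klrb1c, and 1, Klrd1, fell by 0.59. The calls of Eomes and Klrd1 were lost without control 2, and that of Klrb1c without control 1 or fusion/fusion 1. The other 3 did not pass (0.14 to 0.27), and the 8 summed to 182, 208 and 188 CPM in fusion/fusion against 117 and 131 CPM in control libraries. In control/fusion libraries these NK cell markers summed to 235, 160 and 184 CPM. The part of such cells in the granzyme result was not tested.

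Chemokines and growth factors for myeloid cells were higher. Of 20 chemokines 17 were tested, 14 rose and none fell, with a median of 1.70 (0.78 in control/fusion cells). With single libraries left out, 10 to 13 rose, the fewest without control 1. Ccl8 (ENSMUSG00000009185, chromosome 11, 82115185 to 82116799, plus strand), a monocyte attractant, had 38.8, 79.9 and 44.5 CPM in fusion/fusion cells and 4.57, 4.13 and 2.97 CPM in control/fusion cells, against 1.7 and 2.78 CPM in control cells (4.58 ± 0.37, adjusted p = 1.3e-05). It did not pass in control/fusion cells, and the direct difference was 3.85 ± 0.30 (adjusted p = 0.00017). Ccl1, the ligand of CCR8, was picked after its values were seen and had 93, 76 and 66 counts against 3 and 3 in controls. Csf1, the growth factor of macrophages, stood at 54.2, 73.3 and 68.6 CPM in fusion/fusion cells and 17.5, 13.7 and 14.8 CPM in control/fusion cells, against 14.4 and 9.92 CPM in control cells, with a direct difference between both pre-lymphoma groups of 2.09 ± 0.16 (adjusted p = 0.00011). Of 18 other cytokines tested 8 rose and 2 fell, with 4 higher without control 2. The T cell growth factor Il2 rose by 1.84 ± 0.27, with 2.54, 3.62 and 3.53 CPM in fusion/fusion cells, against 0.872 and 0.902 CPM in control cells.

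Beside these stand genes of macrophages that respond to IL-4 and IL-13, in libraries labelled as CD4+ T cells. Of 10 genes of alternatively activated macrophages 8 rose and none fell, with a median of 2.93, or 5 without control 1. The summed level of the 10 was 274, 666 and 257 CPM in fusion/fusion and 206 and 259 CPM in control libraries, so the sums overlapped. In control/fusion libraries it was 526, 265 and 303 CPM. Arg1, an enzyme that breaks down arginine, stood at 24.2, 78.1 and 21.5 CPM in fusion/fusion cells, against 1.04 and 1.18 CPM in control cells, Retnla at 11.4, 68.9 and 6.99 CPM in fusion/fusion cells, against 0.457 and 1.14 CPM in control cells, and Chil3 at 48.9, 258 and 37.3 CPM in fusion/fusion cells, against 8.34 and 7.45 CPM in control cells. Fusion/fusion 2 was the highest library in all 3, and without it the change of Chil3 was 2.46 in place of 3.85, and Retnla did not pass (adjusted p = 0.056). Retnla also did not pass without control 1 (adjusted p = 0.0865) or without control 2 (adjusted p = 0.0657). Of the general macrophage and monocyte markers, 3 of 20 rose and 1 fell, or none fell whichever of the 5 libraries was left out and 1 rose without control 1 and 2 without control 2 or fusion/fusion 1. Without the filter on low counts 8 rose and 4 fell, and with the 2 groups fitted alone 7 rose and 3 fell. Lyz2 stood at 836, 826 and 677 CPM in fusion/fusion cells, against 276 and 254 CPM in control cells, and Adgre1 (F4/80; 0.20 ± 0.29) and Csf1r (0.07 ± 0.26) did not pass. The summed level of these 20 genes was 4270, 5170 and 3740 CPM in fusion/fusion and 3300 and 4080 CPM in control libraries, so the groups overlapped. In control/fusion libraries it was 8170, 4100 and 5000 CPM. Tested directly, 1 of the 20 was higher and 4 were lower in fusion/fusion than in control/fusion cells (median -0.48). Whether the chemokine transcripts came from T cells or from such cells was not tested.

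Immunoglobulin transcripts of 2 classes, IgE and IgG1, stood far above their control level. IL-4 is known to direct mouse B cells to switch to these classes. The genes were picked after their values were seen. Ighe (ENSMUSG00000087642, chromosome 12, 113269260 to 113273248, minus strand), the constant region of IgE, had 232, 307 and 373 CPM in fusion/fusion cells and 1.12, 0.526 and 2.31 CPM in control/fusion cells, against 0.332 and 0.51 CPM in control cells. It rose by 9.47 ± 0.41 against control (adjusted p = 6.3e-07) and by 7.61 ± 0.30 against control/fusion cells (adjusted p = 1.8e-06). Ighg1 (ENSMUSG00000076614, chromosome 12, 113325240 to 113330523, minus strand), the constant region of IgG1, stood at 1880, 4460 and 2940 CPM in fusion/fusion cells and 22.5, 17 and 51.7 CPM in control/fusion cells, against 12.3 and 15.6 CPM in control cells, a change of 7.79 ± 0.60 against control (adjusted p = 9.8e-06). In both genes the lowest fusion/fusion library exceeded every control/fusion and control library many times over.

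Other classes changed less. Ighg2c stood at 423, 1030 and 598 CPM in fusion/fusion cells, against 108 and 73.6 CPM in control cells (2.91 ± 0.61) and Ighg2b at 409, 504 and 336 CPM in fusion/fusion cells, against 114 and 69.6 CPM in control cells (2.18 ± 0.52), and the call of Ighg2b was lost without control 2 (adjusted p = 0.0651). Ighm, at 3060, 5180 and 2650 CPM in fusion/fusion cells, against 2440 and 918 CPM in control cells, did not pass (adjusted p = 0.0613), though it did without control 1 (1.97, adjusted p = 0.0125). Igha, at 4590, 2990 and 3680 CPM in fusion/fusion cells, against 1050 and 3190 CPM in control cells, overlapped between the groups and did not pass, but passed without control 2 (1.83, adjusted p = 0.000663). Ighd did not pass (-0.28 ± 0.12). Of all counts of 8 heavy chain constant genes, Ighg1 took 17.5%, 30.4% and 27.3% in fusion/fusion libraries, against 0.312% and 0.354% in controls. The 8 genes summed to 10800, 14700 and 10800 CPM in fusion/fusion and 3930 and 4410 CPM in control libraries. Of 9 plasma cell markers 7 rose and none fell: Jchain, which joins antibody polymers, stood at 1160, 1150 and 1010 CPM in fusion/fusion cells, against 313 and 525 CPM in control cells, Mzb1 at 7.08, 10.5 and 10.5 CPM in fusion/fusion cells, against 2.12 and 3.02 CPM in control cells, and Sdc1 (CD138) at 17.2, 23.5 and 17.5 CPM in fusion/fusion cells, against 6.35 and 5.49 CPM in control cells. B cell markers did not move together, with 2 of 13 higher and 3 lower, which became 0 to 2 higher and 1 to 6 lower as single libraries were left out, and 7 were lower without the filter on low counts. Their summed levels were 712, 633 and 606 CPM in fusion/fusion and 786 and 645 CPM in control libraries. Ms4a1 (CD20) did not pass (0.02 ± 0.16).

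Receptors for homing changed in both directions. Of 19 chemokine receptors and related receptors 11 rose and 4 fell, among them Ccr7 and Cxcr4 (-1.09 ± 0.10). Ccr8 stood at 23.8, 25 and 32.8 CPM in fusion/fusion cells, against 5.98 and 3.61 CPM in control cells, and Ccr4 at 128, 142 and 125 CPM in fusion/fusion cells, against 34.2 and 24.7 CPM in control cells, both receptors of T helper 2 and regulatory T cells. Cxcr6 stood at 124, 146 and 118 CPM in fusion/fusion cells, against 28.3 and 31.8 CPM in control cells, and Ccr2 at 158, 208 and 166 CPM in fusion/fusion cells, against 51.5 and 41.7 CPM in control cells. All 4 rose, by 2.50, 2.16, 2.1 and 1.93, and all were higher than in control/fusion cells. Of 18 integrins and adhesion receptors 7 rose and 2 fell, with 4 higher without control 2. Itgae (CD103), which binds E-cadherin of epithelia, rose by 2.15 ± 0.20, and Itgb1, the shared chain of receptors for extracellular matrix, stood at 848, 1000 and 932 CPM in fusion/fusion cells, against 343 and 260 CPM in control cells.

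Cytokine receptors also changed in both directions. Of 8 genes of the common gamma chain family 3 rose and 2 fell: Il9r rose, with 80.7, 77.2 and 65.3 CPM in fusion/fusion cells, against 21.6 and 18.5 CPM in control cells, and Il7r, the receptor that keeps naive cells alive, fell, with 265, 244 and 300 CPM in fusion/fusion cells, against 479 and 583 CPM in control cells. Of 24 other cytokine receptors 12 rose and 8 fell. The decoy receptor Il1r2 rose by 2.33 ± 0.29, Il1r1 by 2.17 ± 0.20, and the TGF-beta coreceptor Tgfbr3 fell by 1.61. Of 18 JAK-STAT genes 5 rose and 7 fell, with 4 lower without control 1. The STAT5-induced feedback genes Socs2 (32.8, 39 and 39.5 CPM in fusion/fusion cells, against 12.6 and 14.3 CPM in control cells) and Cish (58.9, 73.1 and 79.8 CPM in fusion/fusion cells, against 35.9 and 42.1 CPM in control cells) rose, and Socs3 fell, with 135, 154 and 160 CPM in fusion/fusion cells, against 265 and 271 CPM in control cells. Of 17 interferon-stimulated genes 9 rose and 2 fell, but 4 rose when either control was left out.

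**Figure D3:**
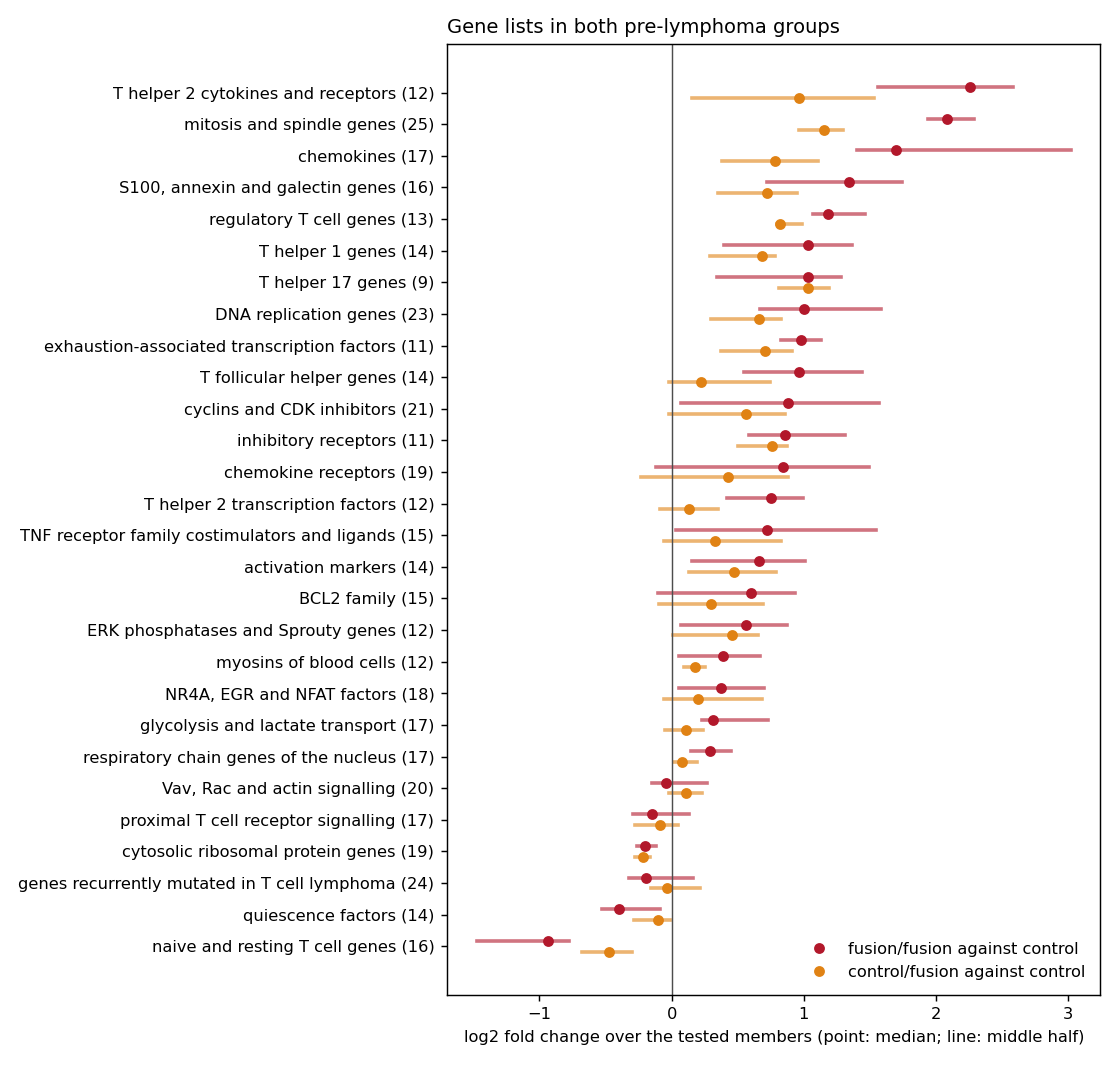
Median (point) and interquartile range (line) of the log2 fold changes of the tested members of 28 gene lists, in fusion/fusion and in control/fusion cells, both against the same 2 controls; the number of members tested stands in parentheses. T helper 2 cytokines and receptors (2.26) and mitosis genes (2.08) lie highest, and naive T cell genes (-0.93) lowest, in fusion/fusion cells.

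Genes of dividing cells were higher in fusion/fusion cells. Of 25 mitosis and spindle genes, 25 passed as higher, with a median of 2.08, and 25 were higher than in control/fusion cells, where the median was 1.15. Mki67, a marker of cycling cells, stood at 300, 292 and 289 CPM in fusion/fusion cells, against 94.2 and 66 CPM in control cells (1.87 ± 0.13, adjusted p = 7.3e-06). Ube2c, a ubiquitin-conjugating enzyme of the anaphase-promoting complex, stood at 40.2, 52.2 and 44.7 CPM in fusion/fusion cells, against 8.72 and 7.06 CPM in control cells (2.53 ± 0.19). The cyclins Ccnb1 and Ccnb2 rose by 2.36 and 2.40. DNA replication genes rose in 21 of 23, with a lower median of 1.0: Rrm2, a subunit of ribonucleotide reductase, stood at 92.3, 104 and 88.4 CPM in fusion/fusion cells, against 27.2 and 16.3 CPM in control cells, while the helicase gene Mcm5 rose by 0.95 ± 0.10 and the clamp Pcna by 0.43 ± 0.08. Of 21 cyclins, kinases, inhibitors and E2F genes 13 rose and 1 fell. The inhibitors Cdkn1a (p21; 8.08, 14 and 9.89 CPM in fusion/fusion cells, against 2.2 and 2.27 CPM in control cells) and Cdkn2c (31.5, 34.5 and 31.9 CPM in fusion/fusion cells, against 13.3 and 8 CPM in control cells) rose, and Cdkn1b (p27), which holds resting cells out of the cycle, fell by 0.47.

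The promoters of these genes were searched for letters known from cell cycle genes, on both strands: the CCAAT box, the cell cycle homology region TTTGAA, and TTTCGCG of E2F sites. Of 25 mitosis genes 20 matched the RefSeq table (GRCm38.p6), with 21 promoters, and of 23 DNA replication genes 19 matched, with 22 promoters. CCAAT was found in 18 mitosis promoters (85.7%) and 15 DNA replication promoters (68.2%), against 37.4% of all 32851 promoters. TTTGAA was found in 16 (76.2%) and 3 (13.6%), against 17.9%, and TTTCGCG in 1 (4.76%) and 6 (27.3%), against 0.849%. Matches of different motifs can overlap by a few letters, and a match describes the sequence, not a bound site. A pair of promoters rich in these letters and the promoter of Birc5, a survivin gene that rose as much (2.38 ± 0.19) without a match in this window, are given here, with CCAAT and TTTGAA or their reverse complements in capitals. Ube2c (chr2:164769679-164769978, plus strand) holds 6 and 1 of them, Ccnb2 (chr9:70421505-70421804, minus strand) 3 and 2, and Birc5 (chr11:117848987-117849286, plus strand) none.
Ube2c: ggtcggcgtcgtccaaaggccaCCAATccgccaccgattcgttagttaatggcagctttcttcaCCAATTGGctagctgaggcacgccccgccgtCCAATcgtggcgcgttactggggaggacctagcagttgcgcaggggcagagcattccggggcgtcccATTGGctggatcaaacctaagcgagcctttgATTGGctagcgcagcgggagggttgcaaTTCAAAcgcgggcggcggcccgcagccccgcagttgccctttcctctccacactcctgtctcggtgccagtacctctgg
Ccnb2: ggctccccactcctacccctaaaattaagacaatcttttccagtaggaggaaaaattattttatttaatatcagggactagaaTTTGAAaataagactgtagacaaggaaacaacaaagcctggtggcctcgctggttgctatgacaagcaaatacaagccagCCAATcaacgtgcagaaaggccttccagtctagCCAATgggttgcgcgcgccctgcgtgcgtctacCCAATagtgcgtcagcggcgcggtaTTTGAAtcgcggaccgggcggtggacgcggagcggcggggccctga
Birc5: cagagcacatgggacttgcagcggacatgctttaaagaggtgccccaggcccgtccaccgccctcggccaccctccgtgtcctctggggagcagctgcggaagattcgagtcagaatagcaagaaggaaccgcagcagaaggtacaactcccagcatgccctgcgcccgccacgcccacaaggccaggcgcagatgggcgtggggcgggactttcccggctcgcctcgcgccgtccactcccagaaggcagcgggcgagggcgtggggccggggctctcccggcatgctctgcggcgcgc

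Metabolic genes that passed included members of several pathways. Of 17 glycolysis and lactate transport genes 12 rose and none fell (median 0.31), but 7 rose without control 2. The lactate exporter Slc16a3 stood at 13, 16.3 and 15.7 CPM in fusion/fusion cells, against 6.56 and 5.1 CPM in control cells, and Tpi1 at 128, 147 and 131 CPM in fusion/fusion cells, against 67.4 and 56.3 CPM in control cells. Of 17 nuclear genes of the respiratory chain 12 rose (median 0.29), and again 7 without control 2. Of 16 amino acid and folate cycle genes 6 rose and 1 fell, with 4 higher without control 2, fusion/fusion 2 or fusion/fusion 3, among them the asparagine synthetase Asns at 6.61, 6.83 and 6.36 CPM in fusion/fusion cells, against 2.2 and 2.08 CPM in control cells. Of 20 cholesterol genes 1 rose and 3 fell, with 1 to 2 lower when any single library was left out and 3 higher without the filter on low counts. Of 16 genes of MYC and ribosome biogenesis 2 rose and 7 fell (median -0.16). Odc1, the first enzyme of polyamine synthesis, rose by 1.74 ± 0.12, and Myc itself did not pass (-0.13 ± 0.10). Of 19 cytosolic ribosomal protein genes 6 fell and none rose (median -0.20), and 1 fell without control 2 and 3 without control 1, without fusion/fusion 1 or with the 2 groups fitted alone, and 11 without the filter on low counts.

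Survival genes of the BCL2 family changed in both directions. Of 15 tested 8 rose and 4 fell, with 1 to 3 lower when single libraries were left out (1 without fusion/fusion 3, 3 without control 2 and 2 without each of the other libraries). Bcl2, which keeps naive T cells alive, fell, with 130, 119 and 133 CPM in fusion/fusion cells, against 213 and 210 CPM in control cells. Bcl2l1 (BCL-XL) rose by 0.95 ± 0.12, with 42.6, 50.2 and 47 CPM in fusion/fusion cells, against 24.6 and 23.6 CPM in control cells, and 3 paralogs of the A1 gene rose, such as Bcl2a1d at 27.1, 31.7 and 29.7 CPM in fusion/fusion cells, against 8.8 and 6.98 CPM in control cells. These paralogs are nearly identical, so the counts of each are uncertain. Of 11 p53 target genes tested 3 rose and 1 fell, and the call of the gene that fell, Bbc3, held when control 1 but no other library was left out.

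Calcium-binding and membrane-linked proteins of effector cells rose. Of 16 genes of the S100, annexin and galectin families tested 16 rose, with a median of 1.34, and 11 were higher than in control/fusion cells. Without control 1, 12 of the 16 rose. S100a6, a calcium-binding protein of effector and memory cells, stood at 175, 237 and 189 CPM in fusion/fusion cells, against 36 and 32.4 CPM in control cells (2.55 ± 0.13, adjusted p = 1.1e-06). Lgals1 stood at 320, 424 and 339 CPM in fusion/fusion cells, against 93.4 and 97.5 CPM in control cells. Of 18 actin and smooth muscle genes 10 rose and 2 fell. Actg2, an actin of smooth muscle (ENSMUSG00000059430, chromosome 6, 83512905 to 83536265, minus strand), had 22.2, 21.3 and 20.1 CPM in fusion/fusion cells, against 1.41 and 1.14 CPM in control cells (4.05 ± 0.17), and Smtn (smoothelin; ENSMUSG00000020439, chromosome 11, 3517523 to 3540612, minus strand) had 51.2, 45.9 and 46.3 CPM in fusion/fusion cells, against 3.28 and 3.1 CPM in control cells (3.91 ± 0.13, adjusted p = 2.1e-07). Both were also higher in control/fusion cells, Actg2 at 12.4, 15.5 and 13.9 CPM and Smtn at 18.4, 16.4 and 14.5 CPM. Of 11 stromal and endothelial markers tested 5 rose and 2 fell (median 1.40), with 3 higher without control 2 and 1 lower without control 1. Those that rose were the endothelial genes Cdh5 and Kdr, the collagens Col1a1 and Col3a1, and Dcn, between 1.40 and 2.59, and Pecam1 and Vwf fell. The call of Col3a1 was lost by DESeq2 and without either control or fusion/fusion 2, that of Col1a1 without control 2 and that of Vwf without control 1. The list summed to 203, 216 and 211 CPM in fusion/fusion and 259 and 247 CPM in control libraries, of which Pecam1, also made by blood cells, averaged 176 CPM in fusion/fusion and 239 CPM in control cells. The part of such cells in the smooth muscle genes was not tested. Vim rose by 1.18 ± 0.10, while Actn1 and Cnn3 fell by 1.43 and 1.21.

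A pair of neighbouring genes on chromosome 2 was close to absent from every pre-lymphoma library. Both were picked after their values were seen. Atrn (ENSMUSG00000027312, chromosome 2, 130906495 to 131030333, plus strand), which encodes the transmembrane protein attractin, had 5, 2 and 2 counts in fusion/fusion libraries and 791 and 780 counts in controls, or 0.179, 0.139 and 0.157 CPM in fusion/fusion cells and 0.375, 0 and 0.069 CPM in control/fusion cells, against 32.8 and 30.6 CPM in control cells. It fell by 7.55 on the log2 scale (standard error 0.37; adjusted p = 9.7e-07). All 6 pre-lymphoma libraries lay below 1 CPM. A730017L22Rik (ENSMUSG00000085566, chromosome 2, 130873059 to 130906396, minus strand), a noncoding gene on the other strand whose start lies 98 bases from that of Atrn, had no count in any of the 6 pre-lymphoma libraries, against 143 and 166 counts in controls. A count of 0 allows up to 3 counts, or 0.103 to 0.235 CPM in these 6 libraries, which covers counting error only. Of 11 other genes tested within 200000 bases of Atrn, 5 rose and none fell, with changes between -0.12 and 1.99. The lowest change was that of 4930402H24Rik (130706200 to 130906406, minus strand), which spans all of A730017L22Rik on the same strand. It stood at 37.9, 36.8 and 37 CPM in fusion/fusion cells, against 39.4 and 41.6 CPM in control cells, and did not pass (adjusted p = 0.23). The counts do not tell overlapping genes apart, so those of 4930402H24Rik and A730017L22Rik are uncertain. Over all genes 23.8% rose and 22.0% fell. Fusion-bearing CD4-Cre tumors held Atrn at 30, 34.6, 21.6 and 31.7 CPM, against 34.5, 25.3 and 26.6 CPM in their controls. The 2 CD4-CreERT2 tumor libraries differed, at 0.0296 and 12.1 CPM, against 11.6 and 6.87 CPM in their controls, so that 1 of the 2 was near 0 as well. The low counts moved with the pre-lymphoma labels in 6 of 6 libraries, and what else these mice share was not tested.

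Other genes named for their change span secreted proteins and enzymes. Penk, the precursor of enkephalin peptides, stood at 40.6, 55.6 and 72.2 CPM in fusion/fusion cells, against 7.84 and 5.68 CPM in control cells (3.04 ± 0.23). C3, the central complement protein, stood at 233, 235 and 155 CPM in fusion/fusion cells, against 26.9 and 21.3 CPM in control cells. Fabp5, a fatty acid binding protein, stood at 84.2, 110 and 80.6 CPM in fusion/fusion cells, against 13.8 and 11.5 CPM in control cells, and the membrane protease Mmp14 at 24.1, 25.9 and 20.4 CPM in fusion/fusion cells, against 3.28 and 2.9 CPM in control cells. All 4 were also higher than in control/fusion cells. Among genes that fell, Dapl1 stood at 17.3, 17.1 and 20.3 CPM in fusion/fusion cells, against 65.1 and 78.1 CPM in control cells, and Als2cl at 135, 139 and 162 CPM in fusion/fusion cells, against 558 and 633 CPM in control cells.

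Among genes recurrently mutated in T cell lymphoma some rose and some fell. Of 24 genes 6 rose and 12 fell (median -0.20). Without control 1 or without fusion/fusion 3, 6 rose and 7 fell, so the excess of falls rested on single libraries. Kmt2d, a histone methyltransferase, stood at 289, 247 and 305 CPM in fusion/fusion cells, against 597 and 734 CPM in control cells, and fell by 1.25 (adjusted p = 3.9e-05), and Arid1a, a subunit of a chromatin remodelling complex, fell by 0.77. Dnmt3a (0.10 ± 0.08) and Rhoa (0.11 ± 0.08) did not pass. These are long genes, with a median exonic length of 5830 bases, and length moved with the fold changes of fusion/fusion cells. With 15674 genes split by length into 5 equal classes, in the longest class 38.1% were lower and 19% higher (median -0.14), against 11.2% lower and 24.6% higher in the shortest (median 0.07). In control/fusion cells the medians of the classes lay between -0.01 and 0.02. The part of length in the result was not tested.

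The same libraries were searched for transcripts of further cell types. Erythroid markers, with the transferrin receptor Tfrc among them, rose in 11 of 11 tested, or 6 without control 1. They summed to 494, 453 and 426 CPM in fusion/fusion and 702, 210 and 300 CPM in control/fusion libraries, against 112 and 183 CPM in control libraries. In control/fusion cells 9 of the 11 rose (median 1.76, against 2.01 in fusion/fusion cells), and none passed in the direct test between both pre-lymphoma groups. Dendritic cell markers rose in 7 of 11, such as Siglech, of plasmacytoid cells, at 95.4, 80 and 70.5 CPM in fusion/fusion cells, against 21.6 and 9.68 CPM in control cells, and Xcr1 at 18.4, 14.4 and 17.1 CPM in fusion/fusion cells, against 2.45 and 2.98 CPM in control cells. In control/fusion cells 9 of these 11 markers rose (median 0.92, against 0.62 in fusion/fusion cells). Tested directly, 2 were higher and 3 lower in fusion/fusion than in control/fusion cells. Eosinophil genes, picked after their values were seen, were low but higher: Epx, the eosinophil peroxidase, had 13, 29 and 14 counts in fusion/fusion libraries against 0 and 0 in controls, Ear6, an eosinophil-associated ribonuclease, 11, 36 and 9 against 0 and 0, and Rnase2a 49, 120 and 28 against 0 and 2. Prg2, the major basic protein, stood at 5.29, 9.4 and 5.97 CPM in fusion/fusion cells, against 1.95 and 0.745 CPM in control cells, and Siglecf rose (2.95 ± 0.84, with adjusted p = 0.0768 without control 1 and 0.0901 without control 2), while Ear2 (0.45 ± 0.29) and Ccr3 (-0.24 ± 0.24) did not pass. Neutrophil markers rose in 2 of 10, or 1 without fusion/fusion 2 or 3 or by DESeq2 and 6 without the filter on low counts. Of 8 MHC class II genes 3 rose, or 1 without control 2, 6 without fusion/fusion 1 and 5 by DESeq2 or without the filter. Of 4 mast cell and basophil genes tested 1 fell, Cd200r3, and of 4 platelet genes tested 1 rose, or 2 without fusion/fusion 3 and none without any other library or by DESeq2. Cd8a (0.12 ± 0.17) and Cd8b1 (-0.24 ± 0.11) did not pass. Of 10 mitochondrially encoded genes none passed by edgeR or DESeq2, and none had an unadjusted p under 0.05 by edgeR, but 3 fell without control 1, such as mt-Cytb (-0.52, adjusted p = 0.0288), and 2 without the filter on low counts. Of 13 dissociation and stress genes 5 rose and 3 fell, with 2 higher without control 2 and 3 without fusion/fusion 3, and the heat shock genes Hsph1 and Dnajb1 were among those that fell. The part of these cells in the results above was not tested.

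**Figure D4:**
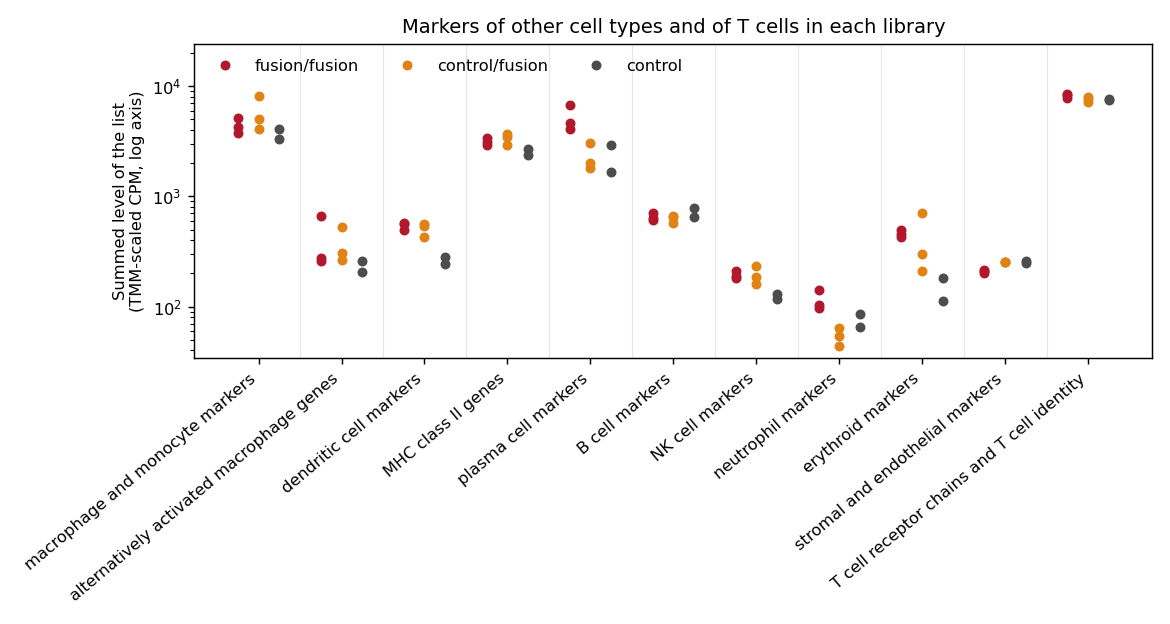
Summed levels of marker lists (TMM-scaled CPM, log axis) in each fusion/fusion, control/fusion and control library; each point is a library. The T cell genes sum to 7790 to 8440 CPM in fusion/fusion and 7510 to 7660 CPM in control libraries. Plasma cell, dendritic cell, MHC class II, neutrophil, NK and erythroid markers lie above both controls in all 3 fusion/fusion libraries. Of these, dendritic cell, MHC class II, NK and erythroid markers also lie above both controls in all 3 control/fusion libraries. B cell, macrophage and alternatively activated macrophage genes overlap between fusion/fusion and control libraries, and stromal markers lie lower in fusion/fusion libraries.

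Usage of T cell receptor beta V genes was compared between the libraries. The most counted Trbv gene took 11.8% (95% Clopper-Pearson interval 11.2% to 12.5%), 11.7% (10.9% to 12.6%) and 12.3% (11.4% to 13.2%) of all Trbv counts in fusion/fusion libraries, against 12.1% (11.5% to 12.8%) and 12.3% (11.6% to 13%) in controls. It was Trbv3 or Trbv13-2 in each. The intervals cover counting error only. No test was made. At the level of V genes, a dominant clone was not detectable in any of these libraries.

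The same genes were followed into lymphoma, in other libraries with their own controls. Tumor libraries differed widely from one another, and few genes passed: 3 higher (0.0168%) and 25 lower (0.140%) of 17841 in CD4-Cre tumors, and none of 17274 in CD4-CreERT2 tumors by edgeR, where 892 had p below 0.05 before adjustment and 271 rose and 42 fell by DESeq2. Tumor values are therefore given as levels and directions. VM98, the last of the 4 CD4-Cre tumor values below, had 34546 genes detected, against 21702 to 24573 in the other CD4-Cre CD4+ libraries. Its reads aligned to a single place that matched no gene were 23.7%, against 13.4% to 17.5%. The part of this in the tumor values was not tested. Of genes over 2-fold higher in fusion/fusion cells, 71% had a positive fold change in CD4-Cre tumors, against 51.9% of all genes tested in both, and 67.9% in CD4-CreERT2 tumors, against 51.2%. Of genes over 2-fold lower, 62.3% were negative in CD4-Cre tumors, against 47.2%, and 68% in CD4-CreERT2 tumors, against 47.6%. Across genes, Spearman's rho with the fusion/fusion fold change was 0.24 over 15345 genes and 0.31 over 14653 genes, where genes are not independent replicates.

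Lists of the fusion/fusion comparison differed in how far they moved in tumors. Median changes in CD4-Cre and CD4-CreERT2 tumors were 2.02 and 0.20 for T helper 2 cytokines and receptors, 1.17 and 0.53 for mitosis genes, -0.80 and -0.40 for naive genes, and 0.04 and 0.08 for S100, annexin and galectin genes. Il4 stood at 118, 58.5, 17.1 and 43.1 CPM in the 4 CD4-Cre tumor libraries, against 8.43, 8.82 and 7.44 CPM in their controls, and at 31.5 and 6.15 CPM in the 2 CD4-CreERT2 tumor libraries, against 3.67 and 5.01 CPM. All 4 CD4-Cre tumors and both CD4-CreERT2 tumors exceeded their controls. Gzmb stood at 1210, 364, 38 and 163 CPM in CD4-Cre tumors, against 35.9, 35.7 and 28 CPM, and at 695 and 8.31 CPM in CD4-CreERT2 tumors, against 13.8 and 37.6 CPM, so a single CD4-CreERT2 tumor was high. Igfbp4 stood at 5.47, 2.24, 0.764 and 9.75 CPM in CD4-Cre tumors, against 156, 142 and 308 CPM in controls, and at 5.66 and 250 CPM in CD4-CreERT2 tumors, against 145 and 57.2 CPM, so 1 of these 2 tumors lay below both controls and the other above both. Ighg1 stood at 2260, 253, 12.8 and 1660 CPM in CD4-Cre tumors, against 4.34, 44.3 and 70 CPM, and 3 of 4 tumors lay above all controls. In CD4-CreERT2 tumors it stood at 2000 and 127 CPM, against 163 and 42.9 CPM, with 1 tumor above both controls and 1 between them. None of these changes passed in the tumor sets.

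**Figure D5:**
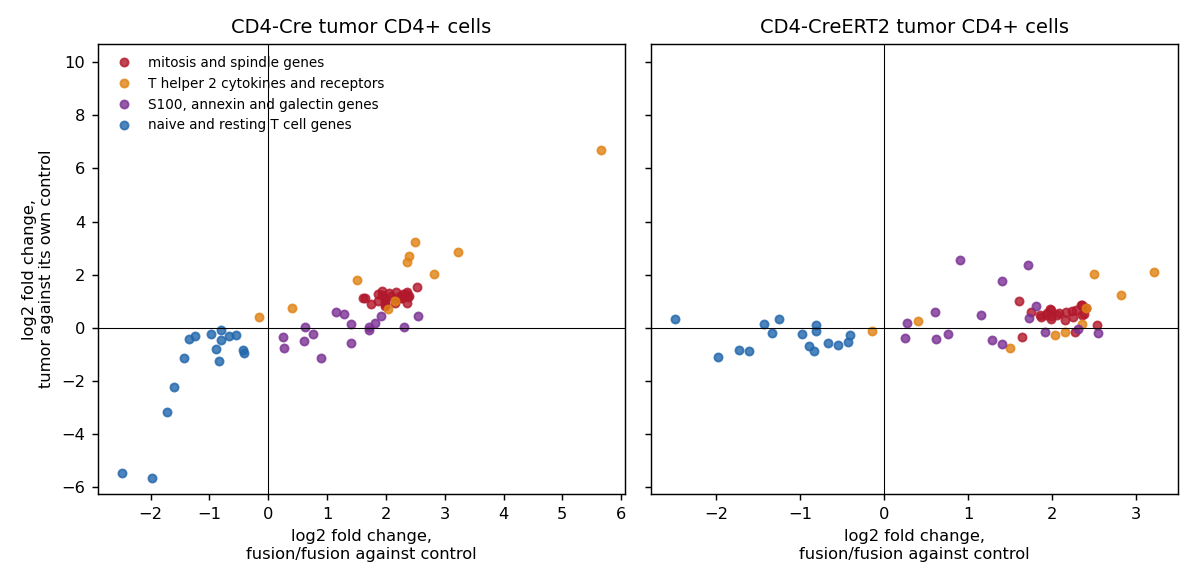
Each point is a gene of 4 lists, with its log2 fold change in fusion/fusion against control cells on the horizontal axis and in CD4-Cre (left) or CD4-CreERT2 (right) tumor against control CD4+ cells on the vertical axis. Mitosis genes and T helper 2 cytokines and receptors lie above 0 in CD4-Cre tumors and naive genes below 0 in CD4-Cre tumors, while the S100, annexin and galectin genes scatter around 0, with a median of 0.04 in CD4-Cre tumors.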

How the data were processed

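Counts per gene symbol were deposited by the authors for the 8 pre-lymphoma libraries and the CD4-Cre CD4+ libraries, and counts per gene ID for the CD4-CreERT2 libraries. Per the labels' protocols, RNA was isolated with a micro column kit, amplified with SMART-Seq v4 and sequenced from Nextera XT libraries. The submitters' processing notes name HISAT2 2.1.0, HTSeq 0.5.4 and mm10, with no statement on strand, so antisense and overlapping genes cannot be told apart. Rows for reads in no gene were left out of library sizes and tests. Reads aligned to a single place in no gene were 7.28% to 12.8% in the 8 pre-lymphoma libraries. In the CD4-Cre CD4+ libraries they were 13.4% to 23.7%.

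The counts were analysed with edgeR 4.0.16 (R 4.3.3): filterByExpr by group, TMM, quasi-likelihood F test, two-sided, Benjamini-Hochberg, called at an adjusted p under 0.05. The 8 pre-lymphoma libraries shared 1 fit, with a common biological coefficient of variation of 0.112, against 0.565 and 0.432 in the tumor sets, which were fitted apart. A standard error is the fold change divided by the square root of F. Tables were read with Python 3.11.15, pandas 2.3.3, numpy 2.4.6 and scipy 1.17.1. The test was checked on simulated counts. Alternatives were RLE scaling, no filter, DESeq2 1.42.0, scaling that leaves out 4 gene classes (immunoglobulins, T cell receptors, haemoglobins, mitochondrial genes), a fit of the compared groups alone, and leaving out each library.

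The members and gene lists were chosen with earlier results of these data known. By rule, Vav1, Myo1f, Cd4, Gata3 and Mki67 are named, up to 4 called members of each list with the largest changes (mean log2 CPM of at least 1), and the 15 highest and 15 lowest called genes (mean log2 CPM of at least 3, groups apart), 225 in all. A further 120 genes, such as the immunoglobulin genes, Il13, Atrn and other list members, were named after their values were seen. Gene positions are those of GENCODE M21 (GRCm38, the same assembly as mm10) and promoters those of RefSeq. Exonic lengths came from the deposited CD4-CreERT2 tables and were found for 15674 genes (96.4%). A few genes that the rule or the lists hold are not reported here.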

Additional observations from a re-analysis of the deposited data

Results flagged for a closer look

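Cd4 in the CD4-Cre tumor libraries had a sample far from the others: the lowest of the 4 stood at 389 CPM, against 699, 710 and 715 CPM in the other 3 tumor libraries and 808, 842 and 711 CPM in their controls. The outlier check used a cutoff that about 1 in 20 groups pass by chance. It was made for Vav1, Myo1f, Cd4, Gata3 and Mki67. No group of the fusion/fusion comparison was large enough for this check.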

How the results depend on the processing

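No paired analysis was possible because the labels of fusion/fusion and control cells give no shared replicate numbers. Leaving out single libraries gave 2616 to 3512 higher and 2491 to 3300 lower genes in fusion/fusion against control cells. In control/fusion against control cells it gave 522 to 1636 and 330 to 1051 (lowest without control 2, with 904 lower without control 1 and 922 without the first control/fusion library). Between both pre-lymphoma groups it gave 813 to 1571 and 769 to 1579 (lowest without fusion/fusion 2, with 994 and 851 without fusion/fusion 3, 958 and 981 without the second control/fusion library and 1024 higher without the third). In CD4-Cre tumors the ranges were 0 to 250 and 0 to 329, with 250 and 329 without VM98, 16 and 64 without the VM645 tumor, 10 lower without VM388, 1 and 4 without the control VM211 and 0 without either of the other controls. In CD4-CreERT2 tumors they were 0 to 1890 and 0 to 1351, with 1890 and 1351 without VM236 and 242 and 101 without VM231, where the lone tumor library is assumed to vary like the controls. DESeq2 called 611 higher and 567 lower genes in CD4-Cre tumors and 271 and 42 in CD4-CreERT2 tumors. Without the filter on low counts they were 261 and 397, and 36 and 13. The cause was not tested. In fusion/fusion against control cells RLE scaling (3865 and 3570), no filter (3956 and 3800), DESeq2 (3447 and 3012), scaling without the named gene classes (3918 and 3530) and the 2 groups alone (3789 and 3402) stayed within 1.5 times the counts given. No called value changed sign under these settings. Of 345 named genes 36 lost their call without control 2, 29 without control 1, 12 to 17 without each fusion/fusion library and 8 under DESeq2. Of 124 list counts 26 moved by over 1.5 times without control 2, 20 without control 1, 14 without the filter, 11 without each fusion/fusion library, 9 under DESeq2, 6 with the 2 groups alone and 2 with scaling without the named classes. With 2 controls, each decides much of the spread.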
